A study of Mus musculus with 2 samples.

Results

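Chromatin remodelers are ATP-driven machines that slide, eject or exchange nucleosomes, and 33 mouse genes encoding them were measured here in the embryonic heart. They were chosen by name: subunits of the BAF complexes (also called SWI/SNF, 22 genes), the 9 CHD helicases, and Smarca5 and Smarca1, which share a symbol stem with the BAF ATPases but are the motors of a separate family, ISWI. Each name was matched through the GENCODE gene identifier, and all 33 were found among the 43346 mouse genes of the deposited tables. The tissue was whole heart of B6NCrl embryos at embryonic day 11.5, healthy and pooled from males and females. There was 1 group of 2 libraries and no treatment, mutation or control tissue, so the data give levels within this tissue and how well the libraries matched. Replicate 1 came from a pool of 109 embryos, and the labels give no embryo number for replicate 2. They list separate biosamples but the same donor identifier, so the spread between the libraries need not hold all the variation between litters. A group of 2 allows no test between conditions, and SDs below are over these 2 libraries (n = 2).

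In the BAF complexes, an ATPase sits on a core of scaffold subunits, and mutually exclusive accessory subunits sort the complexes into canonical BAF, PBAF and non-canonical BAF. Many positions can be filled by any of several related proteins, and swaps between them accompany cell fate changes, the best known being that of Actl6a for Actl6b when neural progenitors become neurons. CHD proteins join a pair of chromodomains to the same kind of motor. In mouse heart development, BAF subunits are known to act with the cardiac transcription factors Tbx5, Gata4 and Nkx2-5, and mutations of CHD7 in humans cause CHARGE syndrome, which includes heart defects.

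Expected counts (the authors' estimate of reads per gene) in mouse genes summed to 34447169 in replicate 1 and 25261719 in replicate 2. Levels are in TPM, which is abundance per length scaled to a fixed total per library. All 8 cardiomyocyte markers lay at 10 TPM or more in both libraries, with a median of 1227 TPM, as did all 6 erythroid markers, with a median of 3109 TPM. RNA of heart muscle and of blood cells was thus present in these whole-heart pools. All 8 proliferation markers also passed that level, at a median of 163 TPM. Of all protein-coding genes with a count, 43.7% passed it.

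Most of the remodeler genes were expressed at moderate to high levels. Of the 33 genes, 31 reached 1 TPM in both libraries, against 71.5% of the 16941 protein-coding genes with a count. At 10 TPM or more in both libraries there were 28 of 33, against 43.7% of those genes, and 9 lay at 50 TPM or more in both, against 13.7%. The median member had 23.2 TPM in replicate 1 and 22.0 TPM in replicate 2, and the median of the members' means was 24.6 TPM, against 7.69 TPM over all protein-coding genes with a count. The genes under 10 TPM were Arid1b, Chd9, Dpf1, Actl6b and Chd5. In the order of levels, 18 of the 32 steps from one gene to the next lower one were within the spread of the libraries, meaning that the values of the neighbours overlapped. BAF genes had a median of 31.9 TPM, the ISWI ATPases 28.8 TPM and CHD genes 15.2 TPM. When transcripts with a nearly full coding sequence alone were counted, as described further on, these medians were 21.8, 21.5 and 6.21 TPM.

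**Figure D1:**
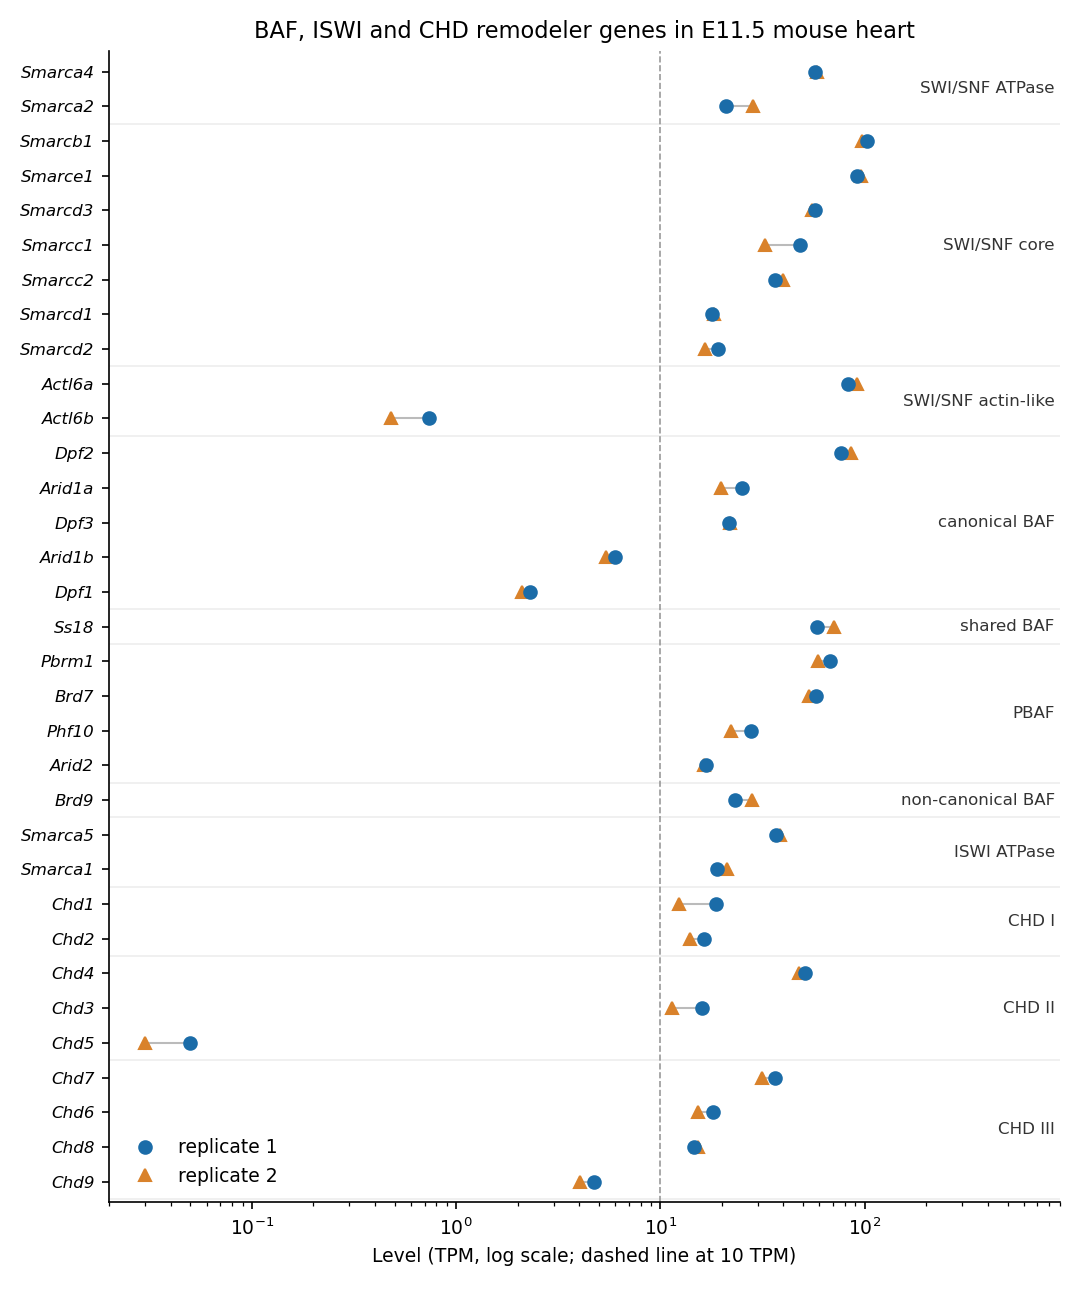
Levels of the 33 genes in TPM on a log axis, grouped by complex (shared BAF: in canonical and non-canonical BAF), with replicate 1 as circles, replicate 2 as triangles and a dashed line at 10 TPM. Smarcb1 is highest at 103 and 96.7 TPM, most genes lie right of the line, and Actl6b and Chd5 lie far to the left, under 1 TPM.

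Among the ATPases, Smarca4 was the higher. Smarca4 (BRG1, chr9:21616169-21704230 on GRCm38), the motor required for early mouse development, had 57.0 TPM in replicate 1 and 58.3 TPM in replicate 2, with a mean of 57.7 ± 0.912. Smarca2 (BRM, chr19:26605050-26778322), its alternative, had 20.9 and 28.4 TPM, a mean of 24.6 ± 5.32. Smarca4 was thus 2.37-fold higher (log2 1.24 ± 0.29), and the ranges did not overlap.

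The core subunits held the highest level of the set. Smarcb1 (chr10:75896769-75921617), which anchors the complex to the nucleosome, had 102.5 and 96.7 TPM, above 92.8% of protein-coding genes with a count. Smarce1, a subunit with an HMG DNA-binding domain, had 91.5 and 96.3 TPM. The scaffold genes Smarcc1 and Smarcc2, whose proteins pair with each other in the core, lay together: Smarcc1 had 48.3 and 32.5 TPM, and Smarcc2 had 36.5 and 39.8 TPM. Which of these genes was higher differed between the libraries (log2 ratios of Smarcc1 over Smarcc2 of 0.40 and -0.29). In the Smarcd family, whose proteins link the complex to transcription factors, Smarcd3 (chr5:24590818-24624411), known from mouse as a partner of cardiac transcription factors, was the most abundant. It had 57.1 and 55.1 TPM, against 17.8 and 18.3 TPM for Smarcd1 and 19.1 and 16.6 TPM for Smarcd2. Smarcd3 made up 60.7% and 61.2% of the family's TPM and was 3.10-fold above Smarcd1 and 3.15-fold above Smarcd2. These libraries did not separate Smarcd1 from Smarcd2. Exons of Smarcd3 share 2466 bases with those of Chpf2 on the other strand (589 and 528 counts in Chpf2), and since the strand setting of the counting is not given, reads of that stretch cannot be assigned between the genes. The same limit holds for other members. Phf10 shares 470 bases with 1600012H06Rik on the other strand (1525 and 1184 counts), and Actl6a shares 452 with Mrpl47, also on the other strand (1093 and 729 counts). Chd2 shares 2628 bases with 1810026B05Rik on its own strand (511 and 290 counts), where no strand setting would separate the genes.

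The Arid1 and Dpf subunits define canonical BAF, and Dpf2 led them. Dpf2, the broadly expressed member of a family of histone-reading PHD finger proteins, had 76.9 and 85.8 TPM. Ss18, the subunit fused in human synovial sarcoma and shared by canonical and non-canonical BAF, had 58.1 and 70.7 TPM. Arid1a (chr4:133679008-133756769), the large DNA-binding subunit, had 25.2 and 19.7 TPM, against 5.97 and 5.44 TPM for its alternative Arid1b. Arid1a therefore held 80.8% and 78.4% of the pair's TPM, a 3.91-fold difference (log2 1.97 ± 0.15). Dpf3, a histone reader needed for heart and muscle development in zebrafish, had 21.7 and 21.9 TPM from 655 and 494 counts. Dpf2 was 3.72-fold above Dpf3, and its share of the 4-gene family, Phf10 included, was 59.8% and 65.1%, against 16.9% and 16.6% for Dpf3.

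The PBAF subunits were present as well. Pbrm1, a subunit with a row of acetyl-lysine-binding bromodomains, had 67.6 and 59.1 TPM, and Brd7, a bromodomain subunit of PBAF, had 57.5 and 53.5 TPM. Phf10, the PHD finger subunit of PBAF, had 27.6 and 22.0 TPM, and was not separated from Dpf3 (log2 ratios of Dpf3 over Phf10 of -0.35 and -0.01). Arid2, the DNA-binding subunit that takes the place of Arid1a in PBAF, had 16.8 and 16.3 TPM. Brd9, the defining bromodomain subunit of non-canonical BAF, had 23.2 and 27.9 TPM. By gene TPM it was 2.18-fold below Brd7, part of whose TPM lay on short noncoding transcripts described further on. Brd9 has 1 annotated transcript and Brd7 has 7, so leaving out such transcripts can lower Brd7 alone.

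Both ISWI ATPases were expressed. Smarca5 (SNF2H), which spaces nucleosomes and is essential in early mouse embryos, had 36.7 and 38.3 TPM. Smarca1 (SNF2L), its relative on the X chromosome, had 18.9 and 21.3 TPM, so Smarca5 was 1.87-fold higher (log2 0.90 ± 0.07). With protein_coding transcripts alone the log2 ratio was 0.36, under 1.5-fold. Counted by transcripts with a nearly full coding sequence alone it was 0.62, over 1.5-fold. The retained intron Smarca5-202 held 29.6% and 19.8% of Smarca5 TPM.

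In the CHD family, Chd4 was the most abundant gene. Chd4 (chr6:125095981-125130591), the main motor of the NuRD deacetylase complex, had 50.7 and 47.8 TPM, against 16.0 and 11.4 TPM for Chd3, which takes the same position, and the difference was 3.65-fold (log2 of Chd3 over Chd4 -1.87 ± 0.29). Chd7 (chr4:8690406-8867659), a remodeler of enhancers, came next at 36.3 and 31.2 TPM. The other genes of its subfamily were lower: Chd6 had 18.1 and 15.3 TPM, Chd8, linked to autism in humans, had 14.7 and 15.3 TPM, and Chd9 had 4.70 and 4.02 TPM. Chd1, which binds methylated histone tails at active promoters, had 18.7 and 12.3 TPM, and its relative Chd2 had 16.4 and 14.0 TPM. The order of Chd1 and Chd2 differed between the libraries.

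Across the 25 ratios that can be formed within the 11 families, 22 had the same gene higher in both libraries, and 20 were also at least 1.5-fold apart in each. The 5 that were not apart were Smarcc1 and Smarcc2, Smarcd1 and Smarcd2, Dpf3 and Phf10, Chd1 and Chd2, and Chd6 and Chd8. The ratios of 1 family share genes and are not independent of each other. How often pairs of unrelated genes meet the same rule was not counted, so these counts show no trait of the families.

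**Figure D2:**
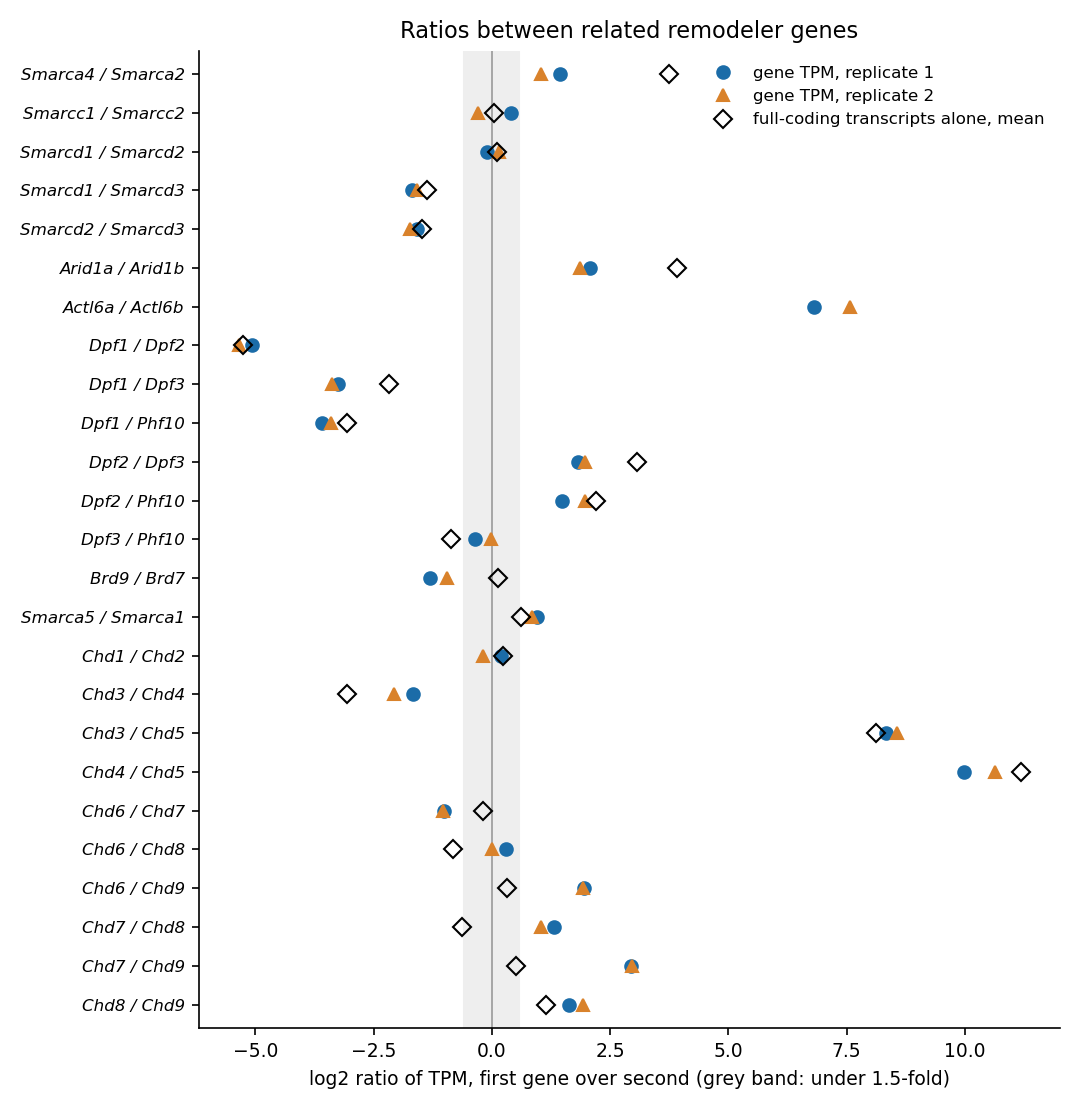
Log2 ratios of TPM for 25 pairs of related genes, first-named gene over second, with circles for replicate 1, triangles for replicate 2, open diamonds for the mean ratio when transcripts with a nearly full coding sequence alone are counted, and a grey band under 1.5-fold. Most circles and triangles lie together outside the band, while the diamonds move into or across it for Brd9 over Brd7 and for 4 of the ratios within the Chd6 to Chd9 subfamily, and no diamond is drawn for Actl6a over Actl6b.

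By gene TPM, the 3 least expressed members, Chd5, Actl6b and Dpf1, are each known from neurons. Actl6b (chr5:137553517-137569582), the neuronal actin-like subunit, had 0.74 and 0.48 TPM from 15 and 5 counts, while Actl6a (chr3:32706298-32726973), the form of dividing cells, had 82.6 and 91.4 TPM. Actl6a made up 99.1% and 99.5% of the pair, a 146-fold difference with a wide error (log2 7.19 ± 0.54). The fold rests on few Actl6b counts and depends on the measure. The log2 ratio was 5.78 with 1 added to each TPM and 8.73 by counts without length correction. Chd5 (chr4:152338651-152390194), the neuronal member of the NuRD motors, had 0.05 and 0.03 TPM from 10 and 6 counts, and lay above 4.91% of protein-coding genes with a count. Dpf1, the neuronal relative of Dpf2, had 2.30 and 2.10 TPM from 118 and 56 counts and was 37.0-fold below Dpf2. Not all relatives of these genes were low: Dpf3, of the same family as Dpf1, had 21.7 and 21.9 TPM. Counted by transcripts with a nearly full coding sequence alone, Arid1b (1.30 and 1.11 TPM) lay below Dpf1 (1.88 and 1.17 TPM). Left out there was Arid1b-203, which keeps 78.5% of the longest coding sequence and had 949 and 656 of the 1395 and 908 Arid1b counts. By gene TPM Arid1b was above Dpf1, at 5.97 and 5.44 TPM. Of 12 neuronal markers, 8 reached 1 TPM in both libraries, a share near the 71.5% of protein-coding genes with a count. At 10 TPM in both were 2 (Gap43 and Tubb3), against 43.7% of those genes. The median of the 12 markers was 3.16 TPM, and they summed to 55.2 and 57.0 TPM, with Elavl3 lowest at 0.14 and 0.17 TPM. Whether the low Actl6b, Dpf1 and Chd5 reads came from the same cells was not tested. In whole tissue, few cells with much of an RNA and many cells with little of it cannot be told apart. Of Chd5, the counts were so few that the transcript tables placed them on different transcripts in each library, so its ratios to Chd4 and Chd3 carry no useful fold.

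The start regions of Actl6a, Actl6b, Chd4 and Chd5 are shown because the related genes differ so widely in level. They run from 250 bases before to 50 bases after the gene start in RefSeq (GRCm38.p6), 5′ to 3′, with CG dinucleotides in capitals. The motif searched was CG, which reads the same on both strands. The RefSeq start of Actl6a lies 2248 bases inside the GENCODE gene.

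Actl6a (chr3:32708296-32708595, plus strand): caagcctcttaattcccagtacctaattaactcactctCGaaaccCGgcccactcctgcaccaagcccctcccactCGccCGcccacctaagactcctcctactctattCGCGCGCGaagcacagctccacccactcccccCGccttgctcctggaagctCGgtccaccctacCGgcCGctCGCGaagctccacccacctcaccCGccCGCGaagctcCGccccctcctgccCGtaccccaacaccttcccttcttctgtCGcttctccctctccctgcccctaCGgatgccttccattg
Actl6b (chr5:137553296-137553595, plus strand): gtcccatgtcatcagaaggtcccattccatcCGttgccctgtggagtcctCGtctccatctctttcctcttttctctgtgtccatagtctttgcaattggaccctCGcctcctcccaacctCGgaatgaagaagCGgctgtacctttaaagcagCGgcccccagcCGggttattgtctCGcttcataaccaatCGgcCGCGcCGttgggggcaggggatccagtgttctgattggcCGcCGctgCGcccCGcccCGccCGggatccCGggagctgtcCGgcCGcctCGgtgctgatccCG
Chd4 (chr6:125095731-125096030, plus strand): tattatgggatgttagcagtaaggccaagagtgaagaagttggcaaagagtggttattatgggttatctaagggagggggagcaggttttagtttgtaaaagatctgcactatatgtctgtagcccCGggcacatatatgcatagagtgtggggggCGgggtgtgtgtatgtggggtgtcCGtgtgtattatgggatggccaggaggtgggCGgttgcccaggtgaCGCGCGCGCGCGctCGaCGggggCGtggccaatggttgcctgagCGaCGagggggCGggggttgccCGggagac
Chd5 (chr4:152338401-152338700, plus strand): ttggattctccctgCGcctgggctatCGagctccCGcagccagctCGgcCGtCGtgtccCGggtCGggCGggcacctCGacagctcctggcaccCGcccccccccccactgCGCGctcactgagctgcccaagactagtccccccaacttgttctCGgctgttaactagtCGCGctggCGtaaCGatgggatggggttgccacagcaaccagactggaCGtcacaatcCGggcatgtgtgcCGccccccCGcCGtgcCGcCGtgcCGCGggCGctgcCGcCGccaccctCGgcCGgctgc

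In these pairs, shown for their wide difference in level, the low gene did not have fewer CG dinucleotides than its abundant relative. Other pairs went both ways. Actl6b had 23 CG in 300 bases, against 21 for Actl6a, and Chd5 had 32, against 17 for Chd4. Dpf1, also low, had 39, against 20 for Dpf2, 17 for Dpf3 and 62 for Phf10, while Chd9 had 19, against 20 for Chd6 and 26 for Chd8, all more abundant. The lower gene had more CG for Arid1b (42, Arid1a 22), Brd9 (40, Brd7 31) and Phf10 (62, Dpf2 20). It had fewer for Smarca1 (9, Smarca5 32), Smarca2 (29, Smarca4 33), Dpf3 (17, Dpf2 20), and Smarcd1 and Smarcd2 (35 and 4, Smarcd3 40). Of the 26 members with an entry in the RefSeq promoter table, 24 (92.3%) had 10 CG or more, against 72.9% of 13021 protein-coding genes with a count and 43.9% of all 27025 start regions in the table. The median was 30 CG in the members, against 18 and 7 in those sets. Under 10 CG were Smarcd2 with 4 and Smarca1 with 9, and Phf10 had the most, 62. The RefSeq start of Smarcd2 lies 5340 bases inside the GENCODE gene, so the region counted may not be where its transcripts start, and 4 of the 26 regions (those of Actl6a, Smarcd2, Smarcc1 and Smarcd3) lie over 1000 bases inside.

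The partners of these machines gave a mixed picture. Of 43 other remodeler genes in 5 lists, 31 reached 10 TPM in both libraries, against 43.7% of protein-coding genes with a count. The NuRD partners of Chd4 were the most abundant, with 10 of 12 at that level and a median of 51.4 TPM, led by the histone-binding proteins Rbbp7 at 334 TPM and Rbbp4 at 239 TPM and the deacetylase Hdac2 at 131 TPM, with Gatad2b lowest at 9.42 and 5.58 TPM. Other BAF subunits were lower, with a median of 8.81 TPM, near the 7.69 TPM over all protein-coding genes with a count. At that level were 3 of 6, also near the share of all genes. The 3 were Bcl7b (24.6 TPM), Bcl7c (23.9 TPM) and Bcl7a (13.6 TPM). Ss18l1, the neuronal alternative to Ss18, was lowest at 1.66 and 3.57 TPM. Of the ISWI partners 5 of 9 passed, not far above the 43.7% of all genes, with a median of 18.6 TPM. They were led by the histone-fold proteins Chrac1 (66.6 TPM) and Pole3 (45.5 TPM) and the bromodomain protein Baz2b (39.5 TPM), and Cecr2 was lowest at 2.87 and 2.11 TPM. In the INO80 family 7 of 9 passed, with a median of 29.96 TPM, led by the helicases Ruvbl1 (71.3 TPM) and Ruvbl2 (65.7 TPM) and by Yeats4 (50.1 TPM), while the motor gene Ino80 itself was lowest at 2.71 and 2.74 TPM. Among other SNF2-type helicases 6 of 7 passed, with a median of 16.2 TPM, and Atrx, a remodeler of repeats and heterochromatin, led with 101 TPM, ahead of Hells (24.84 and 26.06 TPM) and Smarcad1 (16.62 and 18.28 TPM), with the repair gene Ercc6 lowest at 4.20 and 4.32 TPM.

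Gene TPM sums over all annotated transcripts. In many of these genes much of that sum lay on transcript models annotated without the full coding sequence. Transcripts annotated as protein_coding held a median of 91.3% and 94.2% of a member's TPM, against 98.5% and 99.0% over all protein-coding genes at 1 TPM or more in both libraries. That share was lower in replicate 1 than in replicate 2 in 18 of 31 members and equal in 7, against 36.9% of all such genes lower in replicate 1. How many of all such genes were equal was not counted, so these values do not show a lean of the members. Restricting it to protein_coding transcripts that keep at least 90% of the gene's longest coding sequence, called full-coding here, left a median of 75.4% and 75.8% in members, against 92.6% and 94.0% in all such genes. Of the 31 members at 1 TPM or more, 9 had under 50% of TPM in full-coding transcripts in both libraries, against 16.1% of all such genes. They were Smarca2 (18.7% and 16.4%), Chd7 (17.4% and 19.6%), Arid1b (21.8% and 20.4%), Dpf3 (29.99% and 31.7%), Pbrm1 (31.7% and 32.6%), Chd6 (32.4% and 32.8%), Chd3 (33.1% and 38.4%), Brd7 (40.7% and 42.9%) and Chd2 (47.9% and 45.9%). A transcript fragment that is short gets a high TPM from few reads, and these shares are model estimates of how reads were divided. Some shorter models are coding over their whole length, such as Pbrm1-211 with 3256 of 3256 bases. Whether reads given to such models came from longer RNA was not tested.

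**Figure D3:**
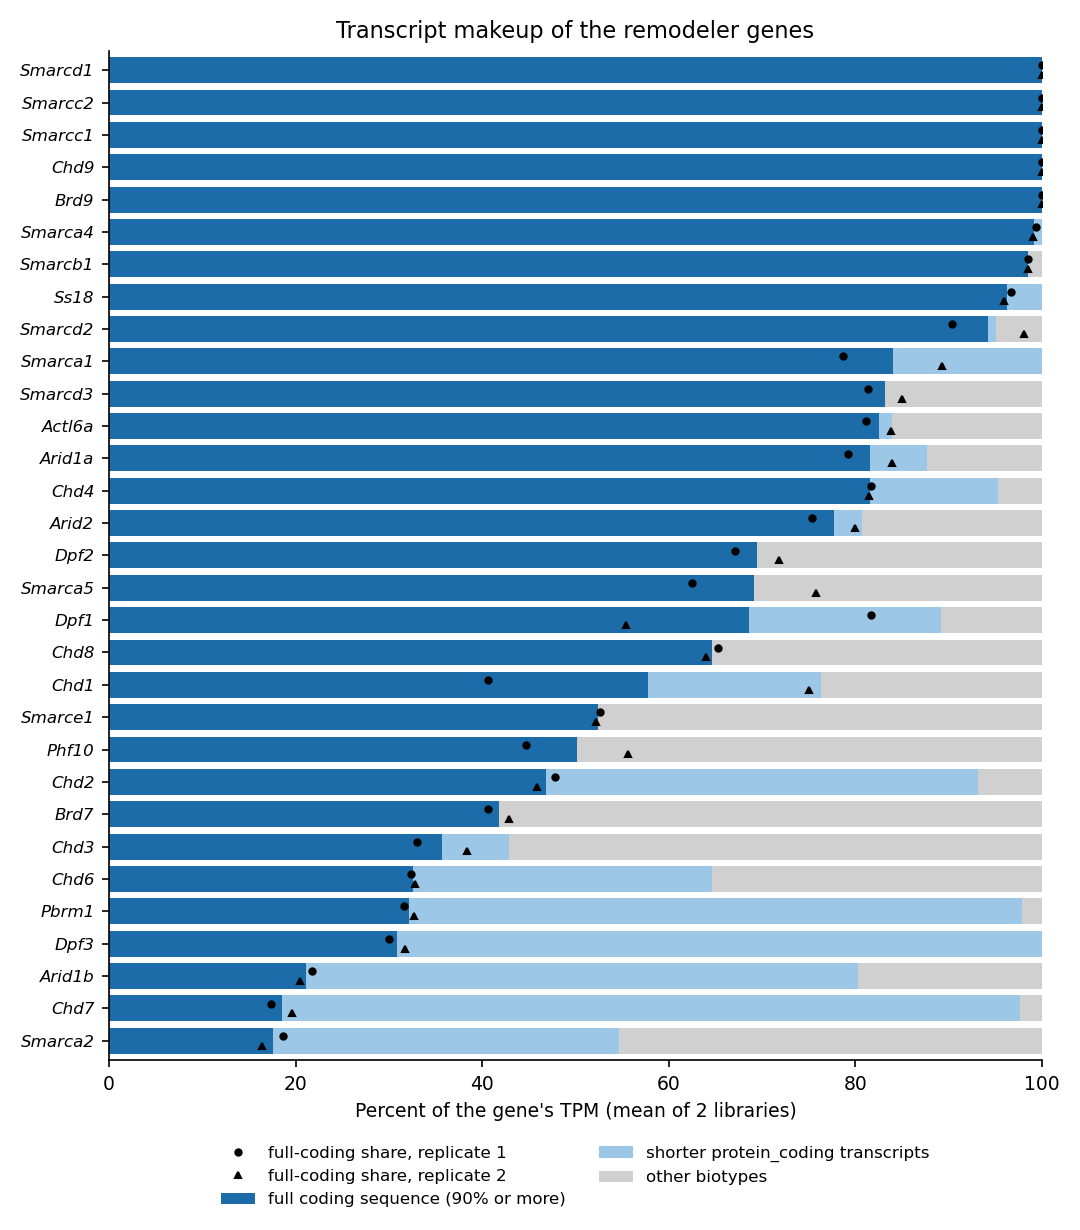
Percent of each gene's TPM in full-coding transcripts (dark blue), shorter protein_coding transcripts (light blue) and other biotypes (grey), as the mean of the 2 libraries for the 31 genes at 1 TPM or more, with the full-coding share of replicate 1 as dots and of replicate 2 as triangles. Smarcc1 and Smarcd1 are wholly dark, while Smarca2 and Chd7 at the bottom are under 20% in both libraries.

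Chd7 shows how far this reaches. Its most abundant transcript was Chd7-203, a 2381-base model with 3 exons at the 5′ end of the gene, with 53.9% and 49.3% of its TPM, and Chd7-206, a 5-exon model of 3462 bases, had 25.4% and 28.8%. The full-length Chd7-202 (38 exons, 10216 bases) had 17.2% and 19.6% of TPM, yet 1804 and 1246 of the gene's 4106 and 2633 counts, the largest count of any Chd7 transcript. Counted by full-coding transcripts, Chd7 had 6.32 and 6.11 TPM. On that scale it was below Chd8 (log2 of Chd7 over Chd8 -0.64), whereas by gene TPM it was 2.25-fold above Chd8 (log2 1.17 ± 0.20). The ratios of Chd6 over Chd7 (log2 -0.19), Chd6 over Chd9 (0.32) and Chd7 over Chd9 (0.51) were under 1.5-fold on that scale. Both annotated Chd9 transcripts are full-coding, so that scale can lower Chd6 and Chd7 but not Chd9. Chd8 then held 36.1% and 39.2% of its subfamily, against 23.9% and 24.5% for Chd7.

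The balance of the BAF ATPases moved the other way. Full-coding transcripts gave Smarca4 56.6 and 57.8 TPM and Smarca2 3.90 and 4.67 TPM, a log2 ratio of 3.74, against 1.24 by gene TPM. Smarca4-204 and Smarca4-202, both nearly full-coding, held 66.0% and 33.3% of Smarca4 TPM in replicate 1 and 60.7% and 32.1% in replicate 2. In Smarca2 the most abundant transcript was Smarca2-215, an 8-exon model of 1460 bases from the 3′ part of the gene annotated for nonsense-mediated decay, with 31.1% and 45.2% of TPM. The full-coding Smarca2-201 had 18.7% and 16.4%. Arid1a over Arid1b widened likewise, to a log2 ratio of 3.92, since Arid1b-203, which keeps 78.5% of the longest coding sequence, held 56.9% and 61.2% of Arid1b TPM. Chd3 over Chd4 went to -3.06.

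A single noncoding transcript (one not annotated as protein_coding) held 20% or more of TPM in both libraries in 6 of the 31 genes, against 11.9% of all such genes. All noncoding transcripts together did so in 9, against 19.8%, the others being Chd8, Dpf2 and Smarca5. In Chd8, protein_coding transcripts held 65.3% and 64.0%. In Chd3 these were the retained introns Chd3-205 (30.8% and 24.3%) and Chd3-203 (24.9% and 23.1%), and in Chd6 the retained intron Chd6-207 (26.3% and 21.7%). In Smarca2 and Phf10 they were decay targets, Smarca2-215 and Phf10-203 (29.6% and 30.4%). Smarce1-205, with 23.5% and 24.1%, is a 481-base processed transcript, and Brd7-203 (27.1% and 26.1%) and Brd7-207 (20.4% and 23.8%) are also short. Brd7-203 rested on 183 and 116 counts, out of 2828 and 1933 for the gene. With full-coding transcripts alone, Brd7 had 23.4 and 23.0 TPM and no longer stood above Brd9 (log2 of Brd9 over Brd7 0.14). The only annotated Brd9 transcript is full-coding, so this scale could lower Brd7 alone. Just outside the 20% cut in 1 library were the retained intron Smarca5-202 (29.6% and 19.8%) and the decay target Dpf2-201 (23.9% and 19.3%).

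The most abundant transcript differed between the libraries in 6 of the 31 genes, against 7.8% of all such genes. The widest difference was in Chd1, where the processed transcript Chd1-203 had 42.3% of TPM in replicate 1 (286 counts) and 5.10% in replicate 2 (16.1 counts). The full-length Chd1-201 had 40.6% in replicate 1 and 75.1% in replicate 2. In Chd4, Chd4-203 (41.5% and 40.0%) and Chd4-202 (39.3% and 41.4%) encode nearly the same protein, so the switch there is between close values. In Smarca1, Smarca1-203 (36.8% and 32.8%) and Smarca1-202 (35.9% and 45.1%) changed places, and both are nearly full-coding. In Dpf3, the short Dpf3-202 (33.7% and 30.4%) led in replicate 1 and Dpf3-203 (20.6% and 34.7%) in replicate 2. In Chd3, the retained intron Chd3-205 led in replicate 1 and the full-coding Chd3-202 (7.67% and 27.0%) in replicate 2. In Chd6, Chd6-201 (32.4% and 32.8%) and the 675-base Chd6-203 (23.5% and 32.99%) were nearly level in replicate 2. Transcript shares of these genes are known only to within such differences.

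Between the libraries, few genes of the set differed by more than 1.5-fold. Counts were scaled by TMM library sizes, and 32 members had a summed count of 20 or more. Past 1.5-fold were 3 of the 32, all higher in replicate 1, against 14.5% of 16621 genes in either direction, 9.7% higher in replicate 1 and 4.84% higher in replicate 2. With a summed count of 100 or more they were 2 of 31, against 6.3% of genes, a share near that of all genes. Smarcc1 (chr9:110117708-110240178) had 7685 counts in replicate 1 and 3646 in replicate 2, a log2 ratio of 0.62 with a 95% counting interval of 0.56 to 0.68. Dpf1 had a ratio of 0.61 (0.15 to 1.11) from 118 and 56 counts. Actl6b had 1.04 (-0.40 to 2.95) from 15 and 5 counts, which includes no difference. Erythroid markers summed to 45297 TPM in replicate 1 and 38091 TPM in replicate 2, and their part in the Smarcc1 difference was not tested. At the other end were Smarca1 at -0.24, Ss18 at -0.24 and Brd9 at -0.22.

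All 8 CHD genes tested had more scaled counts in replicate 1, against 50.1% of all genes, with a median log2 ratio of 0.23. Chd3 had 0.37 (0.25 to 0.50), Chd6 0.36 (0.26 to 0.45) and Chd2 0.33 (0.23 to 0.43), while for Chd1 at 0.06 and Chd8 at 0.05 the counting interval included 0. By TPM the ratio of Chd8 was -0.06. BAF genes were higher in replicate 1 in 15 of 22, with a median of 0.05, and both ISWI genes were lower there. Shares by transcript length varied: of 604 protein-coding genes at 1 TPM or more whose longest transcript has 8000 bases or more, 63.3% were higher in replicate 1, with a median of 0.09, and all 8 members of that length were. Of 1875 such genes with 5000 to 8000 bases, 40.2% were higher in replicate 1, with a median of -0.06, against 7 of 9 members with a median of 0.11. Of 6719 with 2000 to 5000 bases, 39.3% were, with a median of -0.05, against 7 of 14 members with a median of -0.02. Of 2918 under 2000 bases, 59.7% were, and no member had that length. The nuclear RNA Malat1 had 5180 TPM in replicate 1 and 3067 TPM in replicate 2, and retained introns held 4.67% and 4.30% of the TPM of mouse genes. The part of transcript length and of unspliced or nuclear RNA in the CHD difference was not tested.

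**Figure D4:**
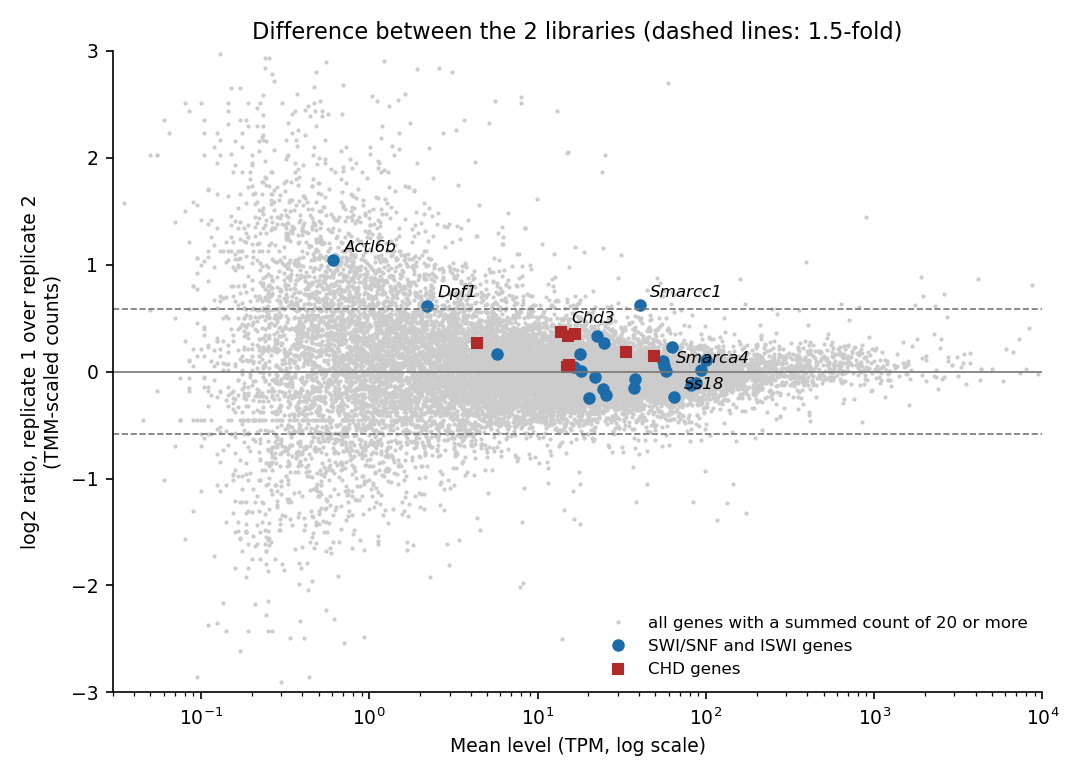
Log2 ratio of TMM-scaled counts, replicate 1 over replicate 2, against mean TPM on a log axis, for all genes with a summed count of 20 or more (grey), BAF and ISWI genes (blue circles) and CHD genes (red squares), with dashed lines at 1.5-fold; 70 genes lie outside the plotted range. The CHD squares all lie above 0, and Smarcc1, Dpf1 and Actl6b lie above the upper dashed line.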

How the data were processed

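Total RNA-seq of E11.5 mouse heart was deposited as a gene and a transcript table per library. Per the labels' protocols, each library was made from 10 ng of mirVana-extracted RNA by a SmartSeq protocol with added spike-ins, and the size range is listed as above 200 without a unit. Per the file headers, the authors' values are expected counts (estimated reads, not whole where reads were shared), TPM, their posterior means, and each transcript's percent of the abundance of its gene. The bounds of the authors' TPM intervals were deposited too, as a score with no use in the results here. The deposited texts name mm10 and annotation M4, while aligner, quantifier and strand setting were not given in the sources used here. Reads shared by overlapping genes or near-identical copies were divided by the authors' model, and expected counts were whole to the decimals deposited in 23 of 33 members in each library, against 77.7% and 79.1% of protein-coding genes with a count.

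Symbols, coordinates, biotypes and coding lengths came from GENCODE M21 on GRCm38, the assembly of mm10. It matched 42462 of 43346 genes (98.0%) and 223 of 225 member transcripts. M21 models can differ from M4: Chd2-201 has 1000 coding bases in M21 but a deposited length of 751. Counts were rounded and scaled with TMM (edgeR 4.0.16, R 4.3.3; library size ratio 1.3696, replicate 1 over replicate 2), 0.5 was added to each, and 95% Clopper-Pearson intervals of the share were turned into log2 ratios; they cover counting error only. Of 23709 genes with a count, 498 had equal counts in both libraries, so the libraries are not copies. With 2 libraries in 1 group the smallest two-sided exact p is 0.5, and none is given. The ratio was tested on simulated data. Tables were joined in Python 3.11.15 with pandas 2.3.3 and scipy 1.17.1, and DESeq2 1.42.0 gave alternative size factors. Alternatives covered posterior means, coding transcripts alone, other cut-offs, other scalings, an added 1 TPM, and each library alone. All members are reported, and genes of the other remodeler lists are named as the highest 3 and the lowest of a list. Members and lists were chosen with earlier results of these data known.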

Additional observations from a re-analysis of the deposited data

How the results depend on the processing

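The count of 28 members at 10 TPM or more became 18 at a cut of 20 TPM, and 20 when full-coding transcripts alone were counted, an alternative chosen after seeing the data. The median level of 24.6 TPM was 20.1 with protein_coding transcripts alone and 16.9 with full-coding transcripts alone, and 22.0 to 23.2 in a single library. Values over all genes were not taken at the 20 TPM cut or for those transcripts alone. How far the members lay above all genes at these settings is therefore not known. The 3 members past 1.5-fold between libraries became 7 at the lower fold tried, against 30.7% of all genes, and 1 at 2-fold, against 6.08%; with TPM ratios they were Actl6b and Chd1, and at a summed count of 100 or more Smarcc1 and Dpf1, against 6.3%. Of the pair ratios, the log2 of Brd9 over Brd7 was 0.14 with protein_coding and 0.14 with full-coding transcripts. That of Dpf3 over Phf10 turned to 0.83 with protein_coding transcripts but was -0.87 with full-coding transcripts. With full-coding transcripts Chd6 over Chd8 was -0.83 and Chd7 over Chd8 -0.64. These changes follow from leaving out the other transcripts, which cannot lower a gene whose annotated transcripts are all full-coding, such as Brd9. The number of pairs apart ranged from 17 to 20 and that of genes with a noncoding transcript at 20% or more from 6 to 9. No paired analysis was possible because there is 1 group. Precision is limited by 2 libraries and, for Chd5, Actl6b and Dpf1, by few reads.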
